A study of Homo sapiens with 7 samples.

Results

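The first of 2 hairpins against SHP2 was compared with a control hairpin in SUM159 cells, on 4 of the 7 arrays of the series and over 18417 genes, each read from 1 probe set of Human Gene 1.0 ST arrays. All cells carried a lentiviral, doxycycline-inducible hairpin and had received doxycycline for 15 days in 2D culture, the controls included. SUM159 is a mesenchymal triple-negative breast cancer cell line. The hairpin was the control hairpin on 2 arrays (Ctrl shRNA, named CTRL miR in the sample labels), the first SHP2 hairpin on 2 arrays (SHP2 sh1, named SHP2 miR1) and the second SHP2 hairpin on 3 arrays (SHP2 sh2, named SHP2 miR2). SHP2 sh2 arrays were used for the estimate of the spread and are given side by side where a gene is described in full. Whether arrays within a group stem from independent cultures or infections is not stated in the labels, so the p-values rest on a spread between arrays that may be technical. They name a column-based RNA kit, whereas the methods of the study name TRIzol. Values are RMA expression on the log2 scale, where a difference of 1 is a 2-fold difference in signal.

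SHP2 is a tyrosine phosphatase encoded by PTPN11. It binds phosphorylated receptor complexes and adaptor proteins such as GAB1 and GAB2, and it promotes signalling from receptor tyrosine kinases through RAS to the kinase ERK. ERK activity induces immediate early genes and its own inhibitors, the DUSP, SPRY and SPRED genes, and growth factor signalling of this kind drives entry into the cell cycle. IL-8, the product of CXCL8, is a chemokine that attracts neutrophils and that many breast cancer cells of the triple-negative type secrete. The comparison addresses which transcripts differ when SHP2 is lowered by the first hairpin, CXCL8 among them.

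The markers of a mesenchymal line were high on all 4 arrays, and most markers of luminal cells were low. VIM, which encodes vimentin, was at 12.10 and 11.96 with Ctrl shRNA and at 12.06 and 11.90 with SHP2 sh1. EPCAM, an epithelial adhesion gene, was at 3.62 and 2.89 with Ctrl shRNA and at 3.79 and 3.58 with SHP2 sh1. CDH1, which encodes E-cadherin, was at 5.32 and 5.19 with Ctrl shRNA, at 5.16 on the first SHP2 sh1 array and at 7.42 on the second. ERBB2 was above the median of all genes (6.97) on all 4 arrays and GATA3 on 2 of them. Markers of blood cells were low throughout, with 1 of 17 at or above the median of all genes on each of the 4 arrays. Of the 12 endothelial markers, 3 reached that median on 3 of the arrays and 4 on SHP2 sh1 replicate 2.

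PTPN11 was lower on both SHP2 sh1 arrays than on both controls. It was at 9.53 and 9.18 with Ctrl shRNA, at 7.90 on replicate 1 of SHP2 sh1 and at 6.93 on its replicate 2. Both SHP2 sh1 values lay clear of the controls, with a gap of 1.28 between the nearest arrays. Against the control mean, PTPN11 was 2.74-fold lower on replicate 1 and 5.34-fold lower on replicate 2. The difference of the means was -1.94 on the log2 scale (SE 0.41, 95% confidence interval -2.91 to -0.96, n = 2 and 2), which is 3.82-fold, with an adjusted p of 0.995 from limma. Its unadjusted p was the 7th smallest of all genes. The SHP2 sh2 arrays were at 7.96, 7.20 and 7.89, and SHP2 sh2 minus SHP2 sh1 was 0.27 (SE 0.37). Less RNA per cell and fewer cells with the hairpin cannot be told apart in these bulk samples.

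The 2 SHP2 sh1 arrays differed widely from each other. The correlation over all probes with the 2 controls was 0.9893 and 0.9883 for SHP2 sh1 replicate 1, 0.9414 and 0.9384 for SHP2 sh1 replicate 2, and 0.930 between the SHP2 sh1 arrays. Replicate 2 was closest to SHP2 sh2 replicate 2, at 0.9722. Replicate 1 differed from the control mean by 1 or more in 240 genes (208 higher, 32 lower) and replicate 2 in 2461 genes (312 higher, 2149 lower). The difference of replicate 2 followed the level of the gene. Its median was 0.26 in the 4605 genes dimmest in the controls and -0.61 in the 4604 brightest, against -0.02 and 0.00 on replicate 1. Across genes, which are no independent replicates, the differences of the 2 arrays from the controls had a correlation of -0.07. Each array is therefore given apart, and lists of bright genes are set beside these 4604 brightest genes, of which 1187 (25.8%) were below both controls on both arrays, 233 (5.06%) above, and 1518 (33.0%) above on replicate 1 and below on replicate 2.

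limma called 0 of 18417 genes (0%) at an adjusted p under 0.05. The smallest adjusted p was 0.995. At an unadjusted p under 0.05 there were 201 genes, 84 lower and 117 higher with SHP2 sh1. The median standard error was 0.31, and a two-sided exact permutation test of 2 against 2 arrays cannot give a p under 0.333. The genes are therefore described by where the arrays lay. Both SHP2 sh1 arrays were below both controls in 2261 genes (12.3%) and above both in 2357 genes (12.8%), or in 2053 and 3260 with each array centred on its median. The 2 arrays lay on opposite sides of both controls more often. Replicate 1 was above and replicate 2 below in 2924 genes (15.9%), and replicate 1 was below and replicate 2 above in 4664 genes (25.3%).

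A gap of at least 1 between both SHP2 sh1 arrays and both controls was rare. It was found in 11 genes on the lower side (0.0597%) and in 8 on the higher side (0.0434%). Of the 11 lower genes, 9 reached the median level of all genes on at least 1 array, PTPN11 among them, and so did 7 of the 8 higher genes. The genes described next are the 12 in each direction with the widest gap above that level.

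ADGRG6, CDH6, NRG1 and ADAMTS6 were lower on both SHP2 sh1 arrays. ADGRG6, an adhesion G protein-coupled receptor, was at 7.96 and 8.10 with Ctrl shRNA and at 6.57 and 6.66 with SHP2 sh1, a difference of -1.41 (SE 0.28). Its arrays agree closely within each group, and the SHP2 sh2 arrays were at 7.08, 6.89 and 7.61. CDH6, a cadherin, was at 8.76 and 9.02 with Ctrl shRNA and at 7.46 and 6.37 with SHP2 sh1 (difference -1.97, SE 0.51). NRG1, a ligand of the receptors ERBB3 and ERBB4, was at 7.89 and 8.30 with Ctrl shRNA and at 6.85 and 5.96 with SHP2 sh1 (difference -1.69, SE 0.40). ADAMTS6, a secreted metalloproteinase, was at 8.75 and 8.45 with Ctrl shRNA and at 7.23 and 5.85 with SHP2 sh1 (difference -2.06, SE 0.59). In these 3 genes the lower SHP2 sh1 value came from replicate 2, and none of the SHP2 sh1 values reached a control. The SHP2 sh2 arrays were at 6.20, 6.51 and 7.46 for CDH6, at 6.07, 6.74 and 6.85 for NRG1 and at 7.26, 5.89 and 7.02 for ADAMTS6.

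DSEL, GPAM and UHRF1 were also lower on both arrays. DSEL, related to the epimerases of dermatan sulfate, was at 7.83 and 7.96 with Ctrl shRNA and at 6.81 and 5.80 with SHP2 sh1. GPAM, which starts glycerolipid synthesis in mitochondria, was at 8.55 and 8.74 with Ctrl shRNA and at 7.67 and 6.68 with SHP2 sh1. UHRF1, which maintains DNA methylation at replication, was at 9.35 and 8.96 with Ctrl shRNA and at 7.53 and 8.01 with SHP2 sh1. UHRF1 was the exception of the 3, with its lower value on replicate 1.

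In 4 of the genes with the widest gaps the controls themselves were far apart. KCNT2, a subunit of potassium channels, was at 7.34 and 9.89 with Ctrl shRNA and at 5.53 and 5.52 with SHP2 sh1. FOXP2, a forkhead transcription factor, was at 6.07 and 8.98 with Ctrl shRNA and at 4.11 and 4.70 with SHP2 sh1. HHIP, which binds Hedgehog ligands, was at 9.55 and 7.52 with Ctrl shRNA and at 5.64 and 5.78 with SHP2 sh1. The SHP2 sh1 arrays agreed within 0.6 in each of these genes, whereas the control arrays did not agree within 2. COL24A1, a collagen chain, was at 6.69 and 8.95 with Ctrl shRNA and at 5.57 and 5.77 with SHP2 sh1. With 1 of the control arrays left out, the difference of KCNT2 ran from -4.37 to -1.82 and that of FOXP2 from -4.57 to -1.67.

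SPARCL1, BGN and GPNMB were higher on both SHP2 sh1 arrays. SPARCL1, a matricellular glycoprotein of the SPARC family, was at 5.995 and 7.38 with Ctrl shRNA and at 9.71 and 9.96 with SHP2 sh1, a difference of 3.14 (SE 0.90). BGN, the proteoglycan biglycan, was at 9.83 and 8.48 with Ctrl shRNA and at 11.30 and 11.08 with SHP2 sh1 (difference 2.03, SE 0.66). GPNMB, a transmembrane glycoprotein, was at 7.42 and 9.13 with Ctrl shRNA and at 10.58 and 10.52 with SHP2 sh1 (difference 2.28, SE 0.51). The SHP2 sh1 arrays lay close together in all 3, and the controls were more than 1 apart. On the SHP2 sh2 arrays SPARCL1 was at 8.35, 8.73 and 6.06, BGN at 9.80, 10.33 and 8.54, and GPNMB at 9.74, 9.55 and 9.74.

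VCAM1 and CCL2, both targets of inflammatory signalling, were higher on each SHP2 sh1 array. VCAM1, an adhesion molecule for leukocytes, was at 6.08 and 5.95 with Ctrl shRNA and at 7.08 and 7.46 with SHP2 sh1 (difference 1.25, SE 0.24). CCL2, a chemokine for monocytes, was at 5.83 and 6.06 with Ctrl shRNA and at 8.33 and 7.18 with SHP2 sh1 (difference 1.81, SE 0.67). The SHP2 sh2 arrays were at 6.90, 6.90 and 7.25 for VCAM1 and at 8.59, 8.17 and 6.64 for CCL2. SOD3, the extracellular superoxide dismutase, was at 7.33 and 7.30 with Ctrl shRNA and at 8.27 and 8.49 with SHP2 sh1 (difference 1.06, SE 0.21). Its controls agreed within 0.03.

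PAGE2B, a gene of the PAGE family of cancer-testis antigens, had the smallest unadjusted p of all genes. It was at 6.99 and 6.87 with Ctrl shRNA and at 8.68 and 9.20 with SHP2 sh1, a difference of 2.01 (SE 0.25, adjusted p = 0.995 from limma), and at 7.52, 7.21 and 7.52 with SHP2 sh2. PAGE2, a near-identical neighbour of lower level that is named here after its values were seen, was at 3.86 and 4.05 with Ctrl shRNA and at 6.33 and 5.70 with SHP2 sh1. Probes of such close copies may read each other's transcript, so the 2 genes are no separate evidence. Between the hairpins, SHP2 sh2 minus SHP2 sh1 was -1.52 for PAGE2B (SE 0.23), and limma called 0 of 18417 genes in that contrast (116 at an unadjusted p under 0.05).

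The other genes of the higher group are given next. CRABP2, a carrier of retinoic acid, was at 5.85 and 5.62 with Ctrl shRNA and at 7.27 and 7.31 with SHP2 sh1. TMEM63C, a membrane protein of the TMEM63 ion channel family, was at 6.36 and 5.68 with Ctrl shRNA and at 7.69 and 7.37 with SHP2 sh1. Both had SHP2 sh1 arrays within 0.4 of each other. TPPP3, which binds tubulin, was at 7.31 and 6.87 against 8.12 and 8.21, and SYT17, a synaptotagmin, at 6.62 and 6.56 against 7.47 and 7.38. SNORA14A, a small nucleolar RNA, was at 5.55 and 5.69 with Ctrl shRNA, at 6.65 on replicate 1 and at 8.997 on replicate 2, so that most of its difference came from the second array.

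**Figure D1:**
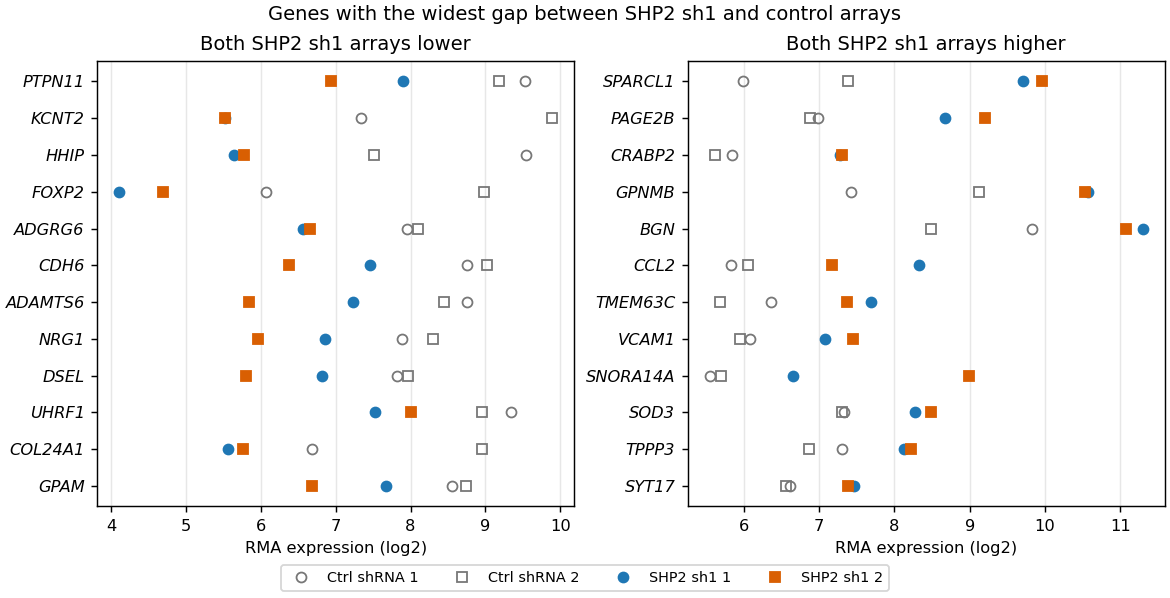
RMA expression (log2, horizontal) of the 12 genes in each direction with the widest gap between SHP2 sh1 and control arrays, with open symbols for Ctrl shRNA, blue for SHP2 sh1 replicate 1 and orange for replicate 2. The controls of KCNT2 lie at 7.34 and 9.89 while those of ADGRG6 lie at 7.96 and 8.10, and the 2 SHP2 sh1 arrays of SNORA14A lie at 6.65 and 8.997.

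CXCL8 lay on opposite sides of the controls on the 2 SHP2 sh1 arrays. The 250 bases before its RefSeq start are shown because the gene is the one the study turns on, with an NF-kB site (GGAATTTCC) and an AP-1 site (TGANTCA) in capitals. The window is chr4:73740319-73740568 of GRCh38.p14 on the plus strand.
CXCL8: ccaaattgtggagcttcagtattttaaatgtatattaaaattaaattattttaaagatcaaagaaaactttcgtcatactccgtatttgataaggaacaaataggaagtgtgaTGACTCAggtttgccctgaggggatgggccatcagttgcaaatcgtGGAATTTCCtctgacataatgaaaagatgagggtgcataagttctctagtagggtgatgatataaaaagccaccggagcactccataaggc
CXCL8 was at 11.27 and 11.38 with Ctrl shRNA, at 12.44 on replicate 1 of SHP2 sh1 and at 10.18 on replicate 2. The first array was 2.17-fold above and the second 2.21-fold below the control mean. The difference of the means was -0.01 on the log2 scale (SE 0.85, adjusted p = 1 from limma), with a direction that turned to 0.30 after cyclic loess, a normalization that evens out differences that follow the level. The SHP2 sh2 arrays were at 11.12, 9.44 and 11.25.

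CXCL1 and CXCL2, which attract neutrophils like CXCL8, were placed as CXCL8 was. CXCL1 was at 9.76 and 10.03 with Ctrl shRNA, at 10.82 on replicate 1 and at 8.83 on replicate 2. CXCL2 was at 8.49 and 8.56 with Ctrl shRNA, at 9.85 on replicate 1 and at 6.46 on replicate 2. Of the 9 measured genes for such chemokines and receptors, these 3 were above both controls on replicate 1 and below both on replicate 2. That is 33.3%, against 15.9% of all genes and 33.0% of the 4604 brightest. None was below on both arrays (against 12.3% of all genes). CXCR2, at 4.13 and 4.26 against 4.36 and 4.77, was above on both (11.1%, against 12.8%). The median difference of the 9 was 0.17 on replicate 1 and 0.09 on replicate 2, the latter turning to -0.11 after cyclic loess.

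Of the 16 genes chosen from the study, 13 were measured. ETS1, which gave the ETS transcription factors their name, was at 8.63 and 8.65 with Ctrl shRNA and at 8.84 and 8.48 with SHP2 sh1 (difference 0.02, SE 0.27). IL32 was at 9.61 and 9.58 with Ctrl shRNA and at 10.22 and 9.54 with SHP2 sh1. IL1RN, the antagonist of the IL-1 receptor, was at 5.93 and 6.30 with Ctrl shRNA, at 8.26 on replicate 1 and at 6.30 on replicate 2. Its difference thus rested on replicate 1. TREM1, a myeloid receptor, was at 6.99 and 9.12 with Ctrl shRNA and at 9.39 and 5.80 with SHP2 sh1, and CXCL12 at 8.53 and 9.48 against 9.09 and 10.15. HPRT1, often used as a reference gene, was at 8.35 and 8.27 with Ctrl shRNA, at 8.82 on replicate 1 and at 6.69 on replicate 2. It was therefore not level across these arrays. MAPK3, the gene of ERK1, was at 9.22 and 9.31 with Ctrl shRNA and at 9.48 and 9.58 with SHP2 sh1, while IL21 and CXCR1 were dim and within 0.2 of the control mean on both.

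The genes with the widest opposed gaps included PTGS2, TNIP3, CXCL2 and IL6, which NF-kB is known to induce. Gaps of at least 1 on both sides, with replicate 1 above and replicate 2 below, were found in 15 genes (0.0814%). PTGS2, the inducible cyclooxygenase, was at 8.57 and 8.83 with Ctrl shRNA, at 10.85 on replicate 1 and at 6.53 on replicate 2. TNIP3, an inhibitor of NF-kB signalling, was at 7.81 and 7.998 with Ctrl shRNA, at 9.48 on replicate 1 and at 5.39 on replicate 2. The mean of the 2 arrays hid differences of this size, being -0.01 (SE 1.55) from the control mean for PTGS2. STC1, a secreted glycoprotein hormone, AIM2, a sensor of cytosolic DNA, GLRX, which reduces mixed disulfides, and AKR1C1, a reductase of steroids and aldehydes with near-identical copies, were placed likewise, with the smaller of their 2 gaps between 1.22 and 1.41.

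Opposed differences of the other kind were smaller. NFIX, a transcription factor of the NFI family, was at 8.89 and 9.01 with Ctrl shRNA, at 8.26 on replicate 1 and at 10.00 on replicate 2. TCF3, which encodes E-proteins, was at 8.49 and 8.50 with Ctrl shRNA, at 7.95 on replicate 1 and at 9.19 on replicate 2. The small nucleolar RNA genes SNORA57, SNORA22 and SNORA68, the pentose phosphate gene PGLS, IGFL1 and the ring finger gene RNF150 were the others of the 8 with the widest gaps, and their smaller gap was between 0.54 and 0.62.

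Gene lists were then described on each array. Over all genes the median difference from the control mean was -0.02 on replicate 1 and 0.10 on replicate 2. Members named below that are not among the 3 with the widest gap of their list were chosen after their values were seen.

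**Figure D2:**
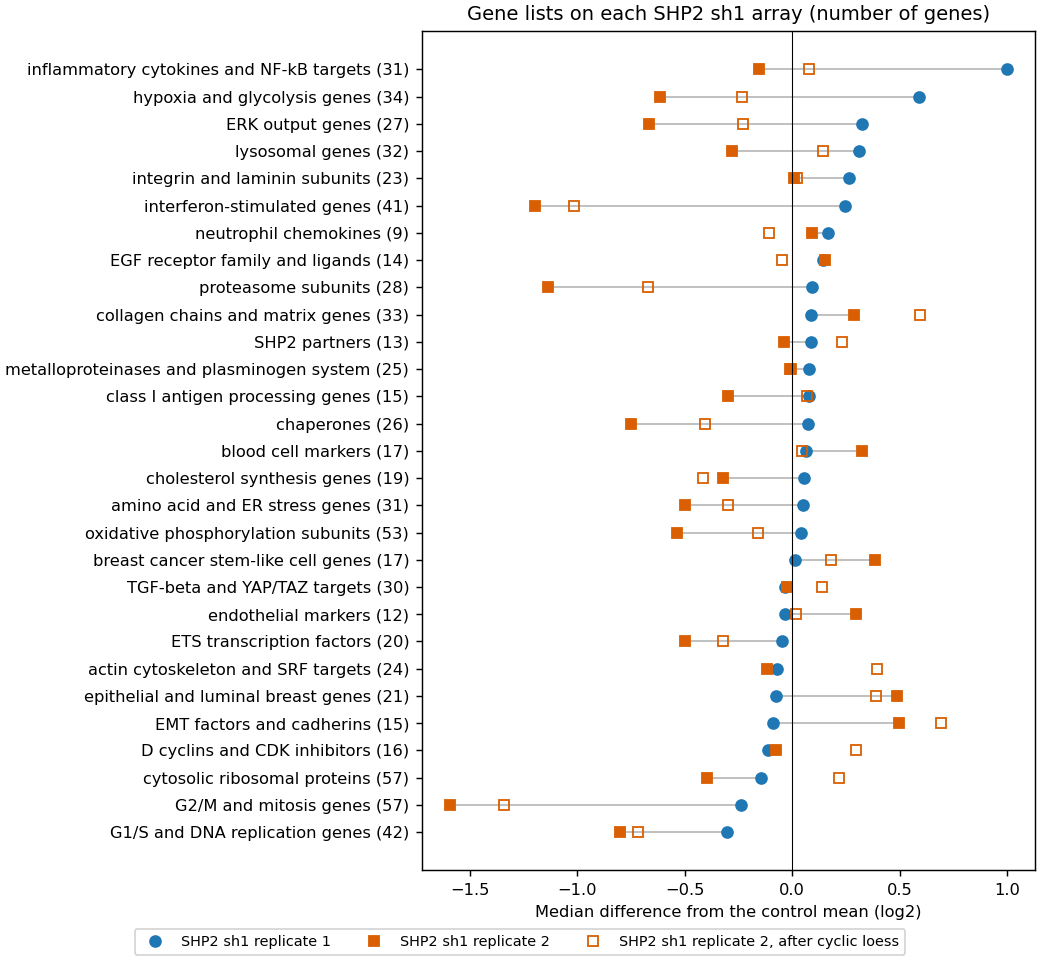
Median log2 difference from the control mean of the 29 gene lists (number of measured genes in brackets), on SHP2 sh1 replicate 1 in blue, on replicate 2 in filled orange and on replicate 2 after cyclic loess in open orange. The G2/M and mitosis genes are at -0.24 and -1.59, the interferon-stimulated genes at 0.25 and -1.20, and the inflammatory genes at 1.00 and -0.15.

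Genes of the cell cycle were lower on both SHP2 sh1 arrays, by more on replicate 2. Of 57 genes of G2/M and mitosis, 43 were below both controls on both arrays and 0 above (75.4% below, against 12.3% of all genes and 25.8% of the 4604 brightest). The median difference was -0.24 on replicate 1 and -1.59 on replicate 2. The list is bright, with a median level of 8.60 in the controls, and the part of the level-dependent difference of replicate 2 in its value was not tested. On replicate 1, 54 of the 57 lay below the control mean, against 10095 of all 18417 genes. After cyclic loess 45 were below both controls on both arrays, with medians of -0.24 and -1.34.

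MKI67 and KIF11 are shown with the bases before their RefSeq starts because promoters of mitosis genes often hold a cell cycle homology region (TTTGAA, searched on both strands), which is in capitals. The windows are chr10:128126424-128126673 on the minus strand and chr10:92592880-92593129 on the plus strand of GRCh38.p14.
MKI67: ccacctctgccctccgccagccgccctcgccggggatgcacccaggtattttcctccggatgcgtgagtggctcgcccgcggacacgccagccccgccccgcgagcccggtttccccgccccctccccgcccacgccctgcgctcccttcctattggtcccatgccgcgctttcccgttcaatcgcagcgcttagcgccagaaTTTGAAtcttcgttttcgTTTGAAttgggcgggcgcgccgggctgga
KIF11: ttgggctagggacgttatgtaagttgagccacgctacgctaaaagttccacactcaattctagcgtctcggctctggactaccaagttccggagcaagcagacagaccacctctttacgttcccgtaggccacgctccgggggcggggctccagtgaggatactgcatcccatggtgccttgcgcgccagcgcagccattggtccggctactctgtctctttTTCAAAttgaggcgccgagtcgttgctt
TTTGAA was found in 35 of 62 RefSeq promoter windows of this list (56.5%) and in 15.2% of all 35116 windows, each running from 250 bases before to 50 after a start. Such a match is a description of letters and not of a bound factor.

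MKI67, the gene of the proliferation marker Ki-67, was at 9.66 and 9.57 with Ctrl shRNA and at 9.05 and 8.17 with SHP2 sh1 (difference -1.01, SE 0.55). KIF11, a motor of the mitotic spindle, was at 8.76 and 8.62 with Ctrl shRNA and at 8.20 and 6.34 with SHP2 sh1 (difference -1.42, SE 0.95). ECT2, which directs cytokinesis, was at 8.71 and 8.92 with Ctrl shRNA and at 8.19 and 6.67 with SHP2 sh1 (difference -1.39, SE 0.78). In all 3 genes replicate 1 was about 0.5 to 0.6 below the control mean and replicate 2 much further. CDK1, the kinase of mitotic entry, was at 8.30 and 7.96 with Ctrl shRNA, at 8.33 on replicate 1 and at 5.75 on replicate 2. CDK1 and BUB3 were the 2 members above both controls on replicate 1 and below on replicate 2.

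Genes of the G1/S transition and DNA replication showed the same placement. Of 42 genes, 29 were below both controls on both arrays (69.0%, against 25.8% of the brightest genes) and 0 above, with medians of -0.30 on replicate 1 and -0.80 on replicate 2, and 27 were below after cyclic loess. MCM7, a subunit of the replicative helicase, was at 9.72 and 9.65 with Ctrl shRNA and at 8.90 and 8.75 with SHP2 sh1 (difference -0.86, SE 0.40). RFC3, a subunit of the clamp loader, was at 9.30 and 9.49 with Ctrl shRNA and at 8.75 and 7.08 with SHP2 sh1. MCM7 was alike on both SHP2 sh1 arrays, as was POLE, a DNA polymerase catalytic subunit, at 8.34 and 8.24 with Ctrl shRNA and at 7.85 and 8.01 with SHP2 sh1. The transcription factor genes E2F1 and E2F2, CDT1 and MCM2 were the 4 members below both controls on replicate 1 and above on replicate 2.

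Regulators of G1 were mixed. Of 16 D cyclins, their kinases and CDK inhibitors, 2 were below both controls on both arrays (12.5%, against 12.3% of all genes). On both arrays 1 was above (6.25%, against 12.8%). CDK4 was at 10.60 and 10.58 with Ctrl shRNA and at 10.26 and 9.72 with SHP2 sh1, and CDK6 at 8.99 and 9.12 against 8.69 and 7.85. CDKN1A, which encodes the inhibitor p21, was at 8.35 and 8.41 with Ctrl shRNA, at 9.56 on replicate 1 and at 8.50 on replicate 2. Both kinases were thus lower and p21 higher on each array, p21 mostly on the first.

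ERK output genes had no common direction on both arrays. Of 27, 5 were below both controls on both arrays (18.5%, against 12.3% of all genes and 25.8% of the brightest). On both arrays 6 were above (22.2%, against 12.8% and 5.06%). A further 10 were above on replicate 1 and below on replicate 2 (37.0%, against 15.9% and 33.0%). The other way round there were 0 (against 25.3% and 7.93%). The median was 0.33 on replicate 1 and -0.66 on replicate 2, or 0.29 and -0.23 after cyclic loess. EPHA4, an ephrin receptor, was at 8.37 and 8.69 with Ctrl shRNA and at 7.79 and 7.87 with SHP2 sh1 (difference -0.71, SE 0.27), and MYC at 10.09 and 10.31 against 9.79 and 9.53. PHLDA2, an imprinted gene, was at 8.48 and 8.45 with Ctrl shRNA and at 8.87 and 9.16 with SHP2 sh1, and SPRY1, an inhibitor of the pathway, at 7.63 and 7.25 against 7.98 and 8.05. The feedback genes DUSP6 and SPRY4 were opposed. DUSP6, the phosphatase of ERK, was at 9.70 and 9.90 with Ctrl shRNA, at 10.13 on replicate 1 and at 8.79 on replicate 2, and SPRY4 at 8.89 and 9.04 with Ctrl shRNA, at 9.88 on replicate 1 and at 7.63 on replicate 2. The growth factor genes EREG and HBEGF lay further apart still, EREG at 9.81 and 10.18 with Ctrl shRNA and at 11.11 and 7.25 with SHP2 sh1, and HBEGF at 10.33 and 9.89 against 11.47 and 7.91.

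Genes for partners of SHP2 and for the ETS family were mixed. Of 13 partners, SHP2 itself included, 1 was below both controls on both arrays (7.69%, against 12.3% of all genes). On both arrays 2 were above (15.4%, against 12.8%). The medians of the partners were 0.09 on replicate 1 and -0.04 on replicate 2. GAB2 was at 6.30 and 6.30 with Ctrl shRNA and at 6.67 and 6.77 with SHP2 sh1. PTPN6, which encodes the related phosphatase SHP1, was at 7.54 and 7.45 against 7.55 and 7.89, a gap of only 0.002. PTPN11 was the member below. Of 20 ETS genes, ETV4, ELK4 and ELF1 were below both controls on both arrays (15.0%, against 12.3% of all genes). Their gaps between the nearest arrays were only 0.077, 0.027 and 0.015. ELF3 was above on both (5.00%, against 12.8%), with a gap of 0.070. The ETS medians were -0.05 on replicate 1 and -0.50 on replicate 2. On replicate 2, 14 of the 20 lay below the control mean, against 7641 of all 18417 genes. The ETS list had a median level of 8.03 in the controls. On replicate 2 the 4604 brightest genes had a median of -0.61 and the 4604 next brightest of -0.005. The part of the level in the ETS values was not tested. ETV4, a target and effector of ERK signalling, was at 7.45 and 7.48 with Ctrl shRNA, at 7.37 on replicate 1 and at 6.63 on replicate 2.

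Inflammatory genes were higher on replicate 1 and divided on replicate 2. Of 31 cytokines and NF-kB targets, 29 were above the control mean on replicate 1 (median 1.00) and 14 on replicate 2 (median -0.15, or 0.08 after cyclic loess). On both arrays 12 were above both controls (38.7%, against 12.8% of all genes and 5.06% of the brightest). On both arrays 0 were below (against 12.3% and 25.8%). A further 12 were above on replicate 1 and below on replicate 2 (38.7%, against 15.9% and 33.0%). The 12 that were higher on both included TNF, at 6.11 and 6.14 with Ctrl shRNA and at 7.32 and 6.67 with SHP2 sh1 (difference 0.87, SE 0.30), beside CCL2 and VCAM1 above. TNFAIP2 was at 8.59 and 8.73 against 9.20 and 9.48, and NFKB2, a subunit of NF-kB, at 8.30 and 8.35 against 8.82 and 8.42. In the controls TNF, CCL2 and VCAM1 lay below the median of all genes (6.97), and TNFAIP2 and NFKB2 above it. Among the 4605 genes dimmest in the controls 19.9% were above on both arrays, and 16.0% of the 4604 next dimmest. The part of the level in this division was not tested.

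IL6 is shown with its window, chr7:22726950-22727199 of GRCh38.p14 on the plus strand, as an opposed member that holds a site of the NF-kB kind (GGGNNTTTCC, in capitals).
IL6: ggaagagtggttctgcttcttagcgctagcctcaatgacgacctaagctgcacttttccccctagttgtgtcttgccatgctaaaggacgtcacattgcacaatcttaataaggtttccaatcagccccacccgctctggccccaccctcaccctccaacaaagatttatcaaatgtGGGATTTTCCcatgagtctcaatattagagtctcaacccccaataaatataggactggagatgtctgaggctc
That motif, searched on both strands, was found in 12 of 37 windows of the list (32.4%) and in 1.91% of all windows, and GGAATTTCC, the site in the CXCL8 window, in 5 of 37 (13.5%) and in 0.461%. IL6 was at 9.37 and 9.60 with Ctrl shRNA, at 11.15 on replicate 1 and at 8.12 on replicate 2. IL1B was at 9.60 and 10.16 with Ctrl shRNA, at 11.98 on replicate 1 and at 8.91 on replicate 2. TNFAIP3, the feedback inhibitor A20, was at 9.24 and 9.40 with Ctrl shRNA, at 10.34 on replicate 1 and at 7.76 on replicate 2. The opposed members thus included cytokines and an inhibitor of the same pathway.

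Interferon-stimulated genes were slightly higher on replicate 1 and much lower on replicate 2. Of 41, 28 were above both controls on the first array and below both on the second (68.3%, against 15.9% of all genes and 33.0% of the brightest), 2 were below on both and 2 above on both. The medians were 0.25 and -1.20, and 0.22 and -1.01 after cyclic loess. SHP2 sh2 had medians of -0.96, -1.72 and -0.83 on its 3 arrays.

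IFIT1 is shown because its window, chr10:89392373-89392622 of GRCh38.p14 on the plus strand, holds the core of the interferon-stimulated response element (GAAANNGAAA, searched on both strands) at 2 places, both read on the opposite strand and in capitals.
IFIT1: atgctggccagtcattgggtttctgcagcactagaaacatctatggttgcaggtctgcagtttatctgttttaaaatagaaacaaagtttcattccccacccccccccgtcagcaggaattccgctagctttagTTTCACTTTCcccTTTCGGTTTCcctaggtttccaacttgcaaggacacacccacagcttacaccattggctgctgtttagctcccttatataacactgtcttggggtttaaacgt
The core was found in 28 of 46 windows of the list (60.9%) and in 3.57% of all windows. IFIT1, which binds viral RNA, was at 8.64 and 8.16 with Ctrl shRNA, at 8.87 on replicate 1 and at 6.64 on replicate 2. IFI44L was at 10.44 and 10.72 with Ctrl shRNA, at 11.27 on replicate 1 and at 7.999 on replicate 2. RIGI, a sensor of viral RNA, was at 8.92 and 8.53 with Ctrl shRNA, at 9.48 on replicate 1 and at 6.65 on replicate 2. The 2 members below both controls on both arrays were BST2, or tetherin, at 9.31 and 9.57 against 9.0 and 8.57, and SAMD9, at 9.14 and 9.12 against 9.04 and 6.96. ISG15, a ubiquitin-like protein, did not follow the list, at 7.54 and 7.23 with Ctrl shRNA and at 7.34 and 7.37 with SHP2 sh1.

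**Figure D3:**
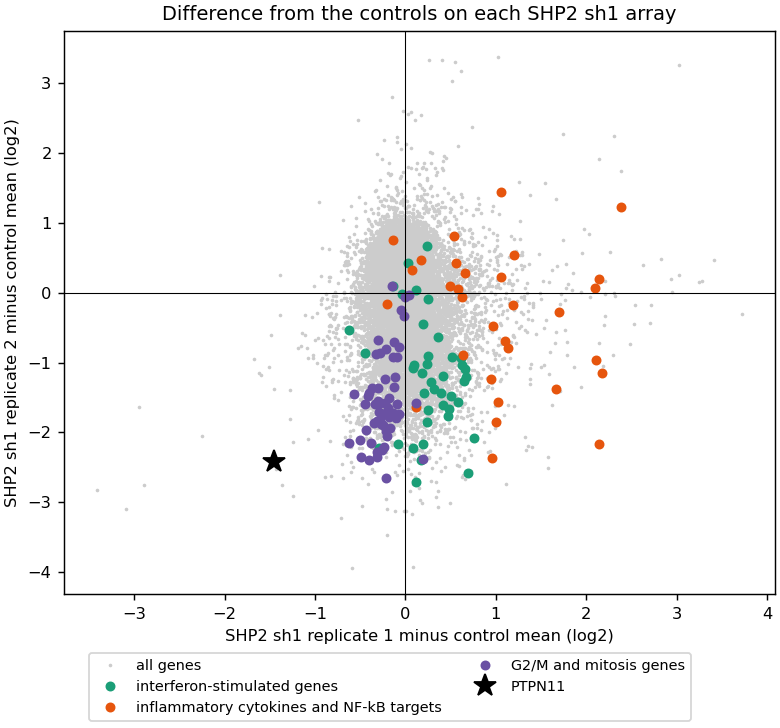
Log2 difference from the control mean on SHP2 sh1 replicate 1 (horizontal) and replicate 2 (vertical) for all 18417 genes in grey, with 3 gene lists in colour and PTPN11 as a star. The vertical spread (SD 0.70) is wider than the horizontal (SD 0.31), most mitosis genes lie below 0 on both axes, and most interferon-stimulated genes lie right of 0 and low.

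Hypoxia and glycolysis genes were also opposed. Of 34, 22 were above both controls on replicate 1 and below both on replicate 2 (64.7%, against 33.0% of the brightest genes), 1 was below on both and 0 above on both, with medians of 0.59 and -0.62. The second median was -0.23 after cyclic loess, and 16 genes were then opposed. BNIP3, a mitophagy gene induced by hypoxia, was at 9.02 and 8.94 with Ctrl shRNA, at 10.36 on replicate 1 and at 7.90 on replicate 2. VEGFA was at 10.22 and 10.35 with Ctrl shRNA, at 10.93 on replicate 1 and at 9.34 on replicate 2. STC2 was the member below on both, at 7.34 and 7.49 with Ctrl shRNA and at 6.6 and 6.13 with SHP2 sh1 (difference -1.05, SE 0.25).

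**Figure D4:**
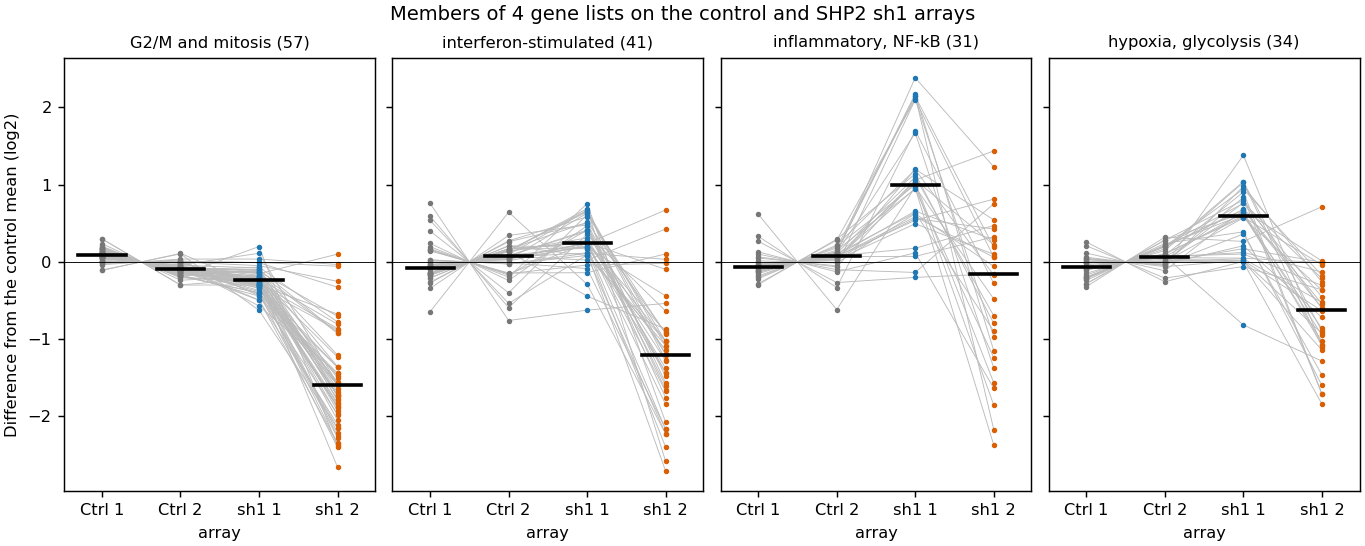
Log2 difference from the control mean (vertical) of each member of 4 gene lists on the 2 control and 2 SHP2 sh1 arrays, with grey lines joining a gene and black bars for the median. Mitosis genes step down from a median of -0.24 to -1.59, and hypoxia genes go from 0.59 to -0.62.

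Matrix, integrin and laminin genes included members that were higher on both arrays. Of 33 collagen chains and matrix genes, 10 were above both controls on both arrays (30.3%, against 12.8% of all genes and 5.06% of the brightest). On both arrays 2 were below (6.06%, against 12.3% and 25.8%). The medians of the list were 0.09 and 0.29. COL6A1, a chain of collagen VI, was at 9.86 and 9.60 with Ctrl shRNA and at 10.73 and 10.48 with SHP2 sh1 (difference 0.88, SE 0.29), and SPARC at 12.21 and 12.28 against 12.62 and 12.57. COL12A1 and VCAN were the members below, COL12A1 at 8.88 and 9.95 against 8.54 and 8.32. Of 23 integrin and laminin genes, 8 were above on both arrays (34.8%, against 12.8% of all genes and 5.06% of the brightest). ITGA3 was the 1 member below (4.35%, against 12.3% and 25.8%). LAMB3, a chain of laminin-332, was at 8.79 and 8.47 with Ctrl shRNA and at 9.80 and 9.44 with SHP2 sh1 (difference 0.99, SE 0.29), and ITGA11, a collagen receptor subunit, at 6.41 and 6.13 against 7.08 and 7.62. The integrin subunit genes ITGB1 and ITGAV were opposed, ITGB1 at 10.42 and 10.37 with Ctrl shRNA and at 10.80 and 9.42 with SHP2 sh1.

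Genes of the amino acid and ER stress responses were divided. Of 31, 9 were below both controls on both arrays (29.0%, against 12.3% of all genes and 25.8% of the brightest). On both arrays 1 was above (3.23%, against 12.8% and 5.06%). With replicate 1 above and replicate 2 below, 13 were opposed (41.9%, against 15.9% and 33.0%). After cyclic loess 9 were below, 5 above and 9 opposed, against 2904, 2456 and 3403 of all 18417 genes. SLC7A1, a carrier of cationic amino acids, was at 10.34 and 10.82 with Ctrl shRNA and at 9.80 and 9.08 with SHP2 sh1 (difference -1.14, SE 0.51), and PSAT1, an enzyme of serine synthesis, at 6.92 and 6.71 against 6.23 and 5.69 (difference -0.85, SE 0.24). The 9 also held ASNS, ATF4 and SLC7A5. The ER chaperone HSPA5 was opposed, at 11.22 and 11.19 with Ctrl shRNA, at 11.69 on replicate 1 and at 10.28 on replicate 2.

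Lists of abundant transcripts depended on the normalization. Of 57 cytosolic ribosomal protein genes, 31 were below both controls on both arrays (54.4%, against 25.8% of the brightest genes), but 13 after cyclic loess, when the median on replicate 2 went from -0.40 to 0.22. RPS15 was at 10.11 and 10.14 with Ctrl shRNA and at 9.56 and 9.68 with SHP2 sh1. Proteasome subunits had medians of 0.09 and -1.14, chaperones of 0.07 and -0.75, oxidative phosphorylation subunits of 0.04 and -0.53, and lysosomal genes of 0.31 and -0.28. After cyclic loess the medians on replicate 2 were -0.67 for the proteasome, -0.405 for chaperones, -0.16 for oxidative phosphorylation and 0.15 for lysosomal genes. As deposited, in each of these 4 lists the first array was near or above the controls and the second below. The 4604 brightest genes had medians of 0.00 and -0.61. Replicate 1 was above and replicate 2 below both controls in 33.0% of these brightest genes. That share was 46.4% for the proteasome, 38.5% for chaperones, 37.7% for oxidative phosphorylation and 53.1% for lysosomal genes.

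The remaining lists are given by their medians and counts. EMT factors and cadherins had medians of -0.09 and 0.50 and epithelial and luminal genes of -0.08 and 0.49. Of these lists 7 of 15 (46.7%) and 8 of 21 (38.1%) were below both controls on replicate 1 and above on replicate 2. So placed were 25.3% of all genes, 33.9% of the 4605 dimmest and 35.3% of the 4604 next dimmest. The epithelial list is dim, with a median level of 6.43 in the controls. TGFB2 was at 7.93 and 7.66 with Ctrl shRNA and at 6.99 and 7.43 with SHP2 sh1. Of 24 genes of the actin cytoskeleton, 8 were below on both arrays (33.3%, against 12.3% of all genes and 25.8% of the brightest). On both arrays 4 were above (16.7%, against 12.8% and 5.06%). TPM4, a member below, was at 10.72 and 10.86 against 10.35 and 9.77. After cyclic loess 2 members were below and 7 above. Of 14 genes of the EGF receptor family and its ligands, 5 were above (35.7%, against 12.8% of all genes). NRG1 was the 1 member below (7.14%, against 12.3%). Of the 5 above, EGF, EPGN, ERBB3 and ERBB4 lay below the median of all genes. Among the 4605 genes dimmest in the controls 19.9% were above on both arrays. After cyclic loess 3 members of the list were above and 2 below. Metalloproteinases and the plasminogen system (5 above and 1 below of 25), TGF-beta and YAP/TAZ targets (4 and 4 of 30), stem-like cell genes (2 and 2 of 17), class I antigen processing (2 and 1 of 15) and cholesterol synthesis (0 and 1 of 19) completed the lists.

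Markers of other cells moved in part with the second array. Of 17 blood cell markers 6 were above both controls on both arrays (35.3%, against 12.8% of all genes and 19.9% of the 4605 dimmest). The median differences of the 17 were 0.07 and 0.33. Their mean level ran from 5.55 to 5.62 with Ctrl shRNA and was 5.66 and 5.93 with SHP2 sh1. PTPRC, which encodes CD45, was at 4.16 and 4.04 with Ctrl shRNA and at 4.38 and 4.75 with SHP2 sh1. Endothelial markers had medians of -0.04 and 0.30, with a mean level of 5.89 to 6.09 with Ctrl shRNA and of 6.10 and 6.51 with SHP2 sh1. These levels are those of dim genes, whose median on replicate 2 was above 0 as well, and their part in the inflammatory and matrix results was not tested.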

How the data were processed

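RNA of SUM159 cells was measured on 7 Human Gene 1.0 ST arrays. According to the study's methods and the submitters' notes, robust multi-array averaging in oligo gave the log2 values that the authors deposited, with background correction, quantile normalization and 1 value per transcript. No version is given in the sources used here. These log2 values, from 1.94 to 13.94, were taken unchanged. Of 33297 probe sets, 19460 had 1 gene symbol in the platform annotation, 1754 had several and 12083 were not listed. Gene IDs of 19429 were found in RefSeq. The probe set with the largest interquartile range stood for its gene (769 genes had more than 1), and no dim gene was left out.

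With limma (3.58.1, R 4.3.3), 3 group means were fitted over the 7 arrays (lmFit, eBayes). Tests were two-sided, p-values were adjusted by Benjamini-Hochberg over all 18417 genes, and the threshold was 0.05. The procedure was also run on simulated data in which all arrays had the same spread. The measured arrays did not, so that run gives no error rate for them. The lists and rules were chosen with earlier results of these data known. Named were the study's genes, the 12 genes in each direction with the widest gap that reached the median level (6.97), up to 3 members of each list with the widest gap or else the 2 of smallest p, and the 8 most opposed genes in each direction. Promoter windows are those of RefSeq on GRCh38.p14.

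Alternatives were the mean of probe sets or the brightest, leaving out dim genes, 2 other normalizations (cyclic loess and median centring), a trended prior, array weights, a fit of the 4 arrays alone, the replicate block, leaving out each array in turn, and leaving out both SHP2 sh1 replicate 2 and SHP2 sh2 replicate 2, which stood apart. No batch is given in the labels. The number of arrays limits the precision.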

Additional observations from a re-analysis of the deposited data

How the results depend on the processing

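limma called 0 genes in all 17 alternatives. The number at an unadjusted p under 0.05 was 201 and stayed between 199 and 221 with another probe set, median centring, trend, array weights or the 4 arrays alone. It was 79 without dim genes, 349 with cyclic loess and 1917 without both arrays that stood apart, and ran from 62 (without Ctrl shRNA replicate 2) to 1315 (without SHP2 sh1 replicate 1) with single arrays left out. The genes below both controls ran from 3512 to 7519 and those above from 3606 to 9728 when an array of the 4 was left out, which drops a condition of the count so that it can only rise, and 822 were above without dim genes. The deviations of same-numbered arrays had a correlation of -0.06 between Ctrl shRNA and SHP2 sh1 (1 value, since with 2 arrays a group both pairs give the same), of 0.023 and -0.027 between Ctrl shRNA and SHP2 sh2, and of 0.615 and 0.846 between SHP2 sh1 and SHP2 sh2. Not every pair was above 0.1, so the numbers were not taken to pair the arrays. With the replicate block 753 genes were at an unadjusted p under 0.05 and 0 were called.

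PTPN11 stayed lower in every alternative, from -2.42 to -1.45 with single arrays left out, and its adjusted p ran from 0.393 to 1. CXCL8 ran from -1.15 to 1.12, was 0.30 with cyclic loess and was 1.12 without both arrays that stood apart. With those settings CXCL1 went to 0.19 and 0.93 and CXCR1 to -0.086 and -0.145, and without both arrays TREM1 went to 1.33 and HPRT1 to 0.52. With single arrays left out, ETS1 ran from -0.163 to 0.201, CXCL1 from -1.07 to 0.93, IL32 from -0.057 to 0.62, TREM1 from -2.26 to 1.33 and HPRT1 from -1.61 to 0.52, the lowest without SHP2 sh1 replicate 1 and the highest without replicate 2. Leaving out SHP2 sh1 replicate 2 leaves 1 SHP2 sh1 array, which is assumed to vary like the other groups. Of 1748 refitted values of single named genes, 15 turned direction, as did 6 of 210 taken from 1 SHP2 sh1 array alone. Of list medians, 36 of 261 recomputed values turned, and 20 of 58 from 1 array alone. The cause of these changes was not tested.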
